A study of Homo sapiens with 18 samples.

Results

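The genes described here are 9 genes of insulin-like growth factor (IGF) signalling in MDA-MB-231 cells: the binding proteins IGFBP3, IGFBP4, IGFBP6 and IGFBP7, the receptors IGF1R, IGF2R and INSR, and the adaptors IRS1 and IRS2. They were chosen by symbol and are 9 of the 60642 gene symbols counted. MDA-MB-231 is an established line of mesenchymal-like triple-negative breast cancer (TNBC). The cells received a control siRNA (siNS), an siRNA against HP1γ (siHP1γ), which is encoded by CBX3, or an siRNA against PRMT5 (siPRMT5). Each kind of cell was then given ethanol (Eth, the vehicle) or 100 nM dexamethasone (Dex), a synthetic glucocorticoid that activates the glucocorticoid receptor (GR), for 8 h. RNA-seq of the 6 conditions with 3 replicates each gave 18 libraries. The depletions are transient and come from a pool of siRNAs per target in a single cell line. Before experiments the cells were grown in medium with charcoal-stripped serum, and growth factors in the serum are not seen by RNA-seq of the cells.

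IGF1 and IGF2 are secreted growth factors that bind IGF1R, a receptor tyrosine kinase related to the insulin receptor INSR. IGF2R, also the cation-independent mannose 6-phosphate receptor, has no kinase and takes IGF2 up for degradation. Secreted IGF binding proteins hold the ligands away from the receptors, and proteases release them again. Activated IGF1R and INSR phosphorylate the adaptors IRS1 and IRS2, which recruit PI3K and so switch on AKT and mTOR. In liver, IGFBP1 is under hormonal control by insulin and glucocorticoids.

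Between 8682992 and 12472381 reads were counted per library, and all 9 genes passed the filter on low counts, with 135 to 5723 counts per library. Levels are given below as CPM (a gene's count as a share of the library's total, after TMM scaling between libraries), for replicates 1, 2 and 3 in that order. PRMT5 was at 4.41% of its siNS level in siPRMT5 cells with Dex and at 2.96% with Eth, and CBX3 was at 6.0% and 3.89% of its siNS level in siHP1γ cells. PRMT5 was also lower in siHP1γ cells, at 78.7% with Dex (adjusted p = 0.00123) and 83.9% with Eth (adjusted p = 0.0111). Of the markers of the line, VIM, CD44, AXL, MSN, TGFBI and LGALS1 were at 132.7 CPM or more in every library, although not at a constant level, while ESR1, PGR and CDH1 had at most 2 counts and KRT5 none. ERBB2 (24.5 to 36.0 CPM) and EPCAM (8.57 to 14.0 CPM), both listed as low in the line, were counted in all libraries. Of the markers of other cells, PTPRC and ALB had at most 2 counts, while PECAM1 lay between 1.10 and 8.15 CPM and COL1A1 between 2.69 and 15.1 CPM. As some of these markers moved with the conditions, their changes stand beside the results, and their part in them was not tested. Replicate 1 of siHP1γ Dex stood apart from its replicates: the chi-square of its counts per degree of freedom was 7.20 and 12.05 against replicates 2 and 3, which gave 3.15 between them, while pairs in the other conditions gave 2.07 to 7.004. The counts of the 9 genes that passed in comparisons with siHP1γ Dex are therefore also given without it.

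Few or no reads were counted for the ligands. IGF1 had 0 to 2 counts per library, and IGF2 and INS were listed at 0 in all 18 libraries. IGFALS, the acid-labile subunit of the serum complex, and INSRR, an insulin receptor relative, were also listed at 0, while IGFBP2 had at most 1 count and IGFBP5 at most 2. A listed 0 does not show that the RNA is absent: IGF2 overlaps 5 annotated genes, and reads that overlapping genes share can be left uncounted. IGFBP1, a binding protein induced by glucocorticoids in liver, was at 21.6, 19.6 and 19.4 CPM in siNS Eth and at 36.9, 34.9 and 35.01 CPM in siNS Dex. It rose with Dex by 0.82 on the log2 scale (SE 0.095, adjusted p = 5.26e-07). In siHP1γ cells it was lower than in siNS cells with Dex (log2 fold change -0.48, adjusted p = 3.15e-04) and with Eth (-0.58, adjusted p = 1.46e-04). The difference in response between siHP1γ and siNS cells did not pass for IGFBP1 (0.097, adjusted p = 0.767). IGFBPL1, a related protein at 7.30 to 12.5 CPM, passed no threshold in these comparisons. Dex also raised IGFBP1 in siHP1γ cells (0.92, adjusted p = 4.42e-07) and in siPRMT5 cells (1.19, adjusted p = 4.21e-10). In siPRMT5 against siNS cells IGFBP1 did not pass, with 0.16 with Dex (adjusted p = 0.139), -0.21 with Eth (0.105) and 0.38 for the difference in response (0.121).

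Dex raised IGFBP3, IGFBP4 and IRS2 in siNS cells. These 3 of the 9 genes passed the threshold for a response to Dex (adjusted p under 0.01 and at least 1.5-fold), and none was lower, where 2.71% of the 15298 genes tested passed and 1.65% passed as higher. The median log2 fold change of the 9 was 0.45, beside 0.0036 for all genes tested. In bulk RNA, less RNA per cell and fewer cells that express a gene cannot be told apart. In siHP1γ cells, 2 of the 9 passed, both higher (IGFBP3 and IRS2, where 1.67% of all genes passed and 1.01% as higher), and in siPRMT5 cells the same 2 passed (5.44% of all genes, 2.69% as higher). The 6 reference genes of the GR response, among them FKBP5 and TSC22D3, all rose with Dex in siNS cells. Of the markers, PECAM1 rose too, from 1.10, 1.32 and 1.45 CPM to 3.97, 3.92 and 4.53 CPM (1.67, adjusted p = 1.59e-05), and CD44 had a log2 fold change of -0.54 (adjusted p = 3.23e-07), under the fold limit. PECAM1 also rose in siPRMT5 cells (1.06, adjusted p = 1.16e-04). Without replicate 1 of siHP1γ Dex, the same 2 of the 9 genes passed in siHP1γ cells (IGFBP3 0.95 and IRS2 0.84). The reference genes also differed between cells at an adjusted p under 0.05. Against siNS Dex, 4 of the 6 were lower and 0 higher in siHP1γ Dex, and 5 higher and 0 lower in siPRMT5 Dex. Against siNS cells, the response was smaller for 3 of them in siHP1γ cells and larger for 1, FKBP5 (0.84), in siPRMT5 cells.

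IGFBP3, the main carrier of IGFs in serum, had the highest log2 fold change with Dex of the 9 genes in each kind of cell, although its 95% interval overlapped that of IRS2 in siNS and siHP1γ cells. Its level in siNS cells was 182.0, 190.1 and 216.9 CPM with Eth and 505.5, 463.0 and 516.3 CPM with Dex, with no overlap between the groups. This was a log2 fold change of 1.33 (SE 0.070, 2.52-fold, adjusted p = 1.44e-13). In siHP1γ cells it was at 93.5, 96.3 and 107.5 CPM with Eth and at 183.0, 193.8 and 189.3 CPM with Dex, so that the Dex level of siHP1γ cells lay within the range of the Eth level of siNS cells. The response there was 0.93 (SE 0.072, 1.90-fold, adjusted p = 8.14e-10). In siPRMT5 cells the Eth level was 63.3, 62.7 and 64.0 CPM, the lowest of the 6 conditions, and the Dex level was 309.7, 301.6 and 294.8 CPM. The response of 2.25 (SE 0.075, 4.77-fold, adjusted p = 5.41e-18) thus started from a lower level and ended below that of siNS cells. The 6 conditions ran, from low to high, siPRMT5 Eth, siHP1γ Eth, siHP1γ Dex, siNS Eth, siPRMT5 Dex and siNS Dex, and among neighbours the libraries of siHP1γ Dex and siNS Eth overlapped.

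The response of IGFBP3 to Dex was larger in siPRMT5 than in siNS cells by 0.92 on the log2 scale (SE 0.10, adjusted p = 3.34e-06 for the difference between the responses). Of the 9 genes, 2 passed this test of a difference, IGFBP3 and IGFBP4, where 3.80% of all genes did. Of the others, IRS2 is described below, and IGFBP6 (-0.31), IGFBP7 (-0.13), IGF1R (-0.35), IGF2R (-0.35), INSR (0.12) and IRS1 (-0.17) had adjusted p from 0.108 to 0.734. The markers TGFBI (0.45, adjusted p = 0.0247) and COL1A1 (-0.90, adjusted p = 0.0390) passed the same test. In siHP1γ cells the difference for IGFBP3 of -0.41 (SE 0.10) gave an adjusted p of 0.0671 (0.00766 with DESeq2 and 0.0225 without the filter on low counts). With siHP1γ, 0 of the 9 genes passed in edgeR, where 0.399% of all genes passed and 2636 had an unadjusted p under 0.05, and 2 of the 9 passed in DESeq2, the other being IGF1R (-0.47, adjusted p = 0.0310, against -0.48 and 0.0929 in edgeR). Without replicate 3 of siNS Eth, IGFBP3 passed as well (-0.48, adjusted p = 0.0486), and without replicate 1 of siHP1γ Dex its difference was -0.38 (adjusted p = 0.143) and again 0 of the 9 passed. The other 7 genes had differences of -0.39 (IGF2R and IRS2), -0.35 (INSR), -0.17 (IGFBP4), -0.13 (IGFBP6), -0.12 (IRS1) and 0.19 (IGFBP7), with adjusted p from 0.120 to 0.801.

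IGFBP4, which binds IGFs and is cut by the protease PAPP-A, rose with Dex from 177.0, 184.8 and 198.9 CPM to 307.4, 272.3 and 288.3 CPM in siNS cells. The groups did not overlap, and the log2 fold change was 0.63 (SE 0.080, 1.55-fold, adjusted p = 2.07e-06), close to the limit of 1.5-fold: without replicate 1 of siNS Dex it was 0.58 and did not pass. In siHP1γ cells it was at 131.1, 140.2 and 143.2 CPM with Eth and at 164.2, 209.9 and 195.4 CPM with Dex (log2 0.46, SE 0.080, adjusted p = 4.09e-04, 1.37-fold and so under the limit). In siPRMT5 cells the Eth level was already 324.3, 321.1 and 331.5 CPM, above every siNS library of either treatment. With Dex it was 403.6, 347.3 and 371.1 CPM there (log2 0.20, SE 0.078, adjusted p = 0.0892). The response in siPRMT5 cells was thus smaller than in siNS cells by 0.43 on the log2 scale (difference -0.43, SE 0.11, adjusted p = 0.0274). This difference lost the threshold when any of 7 libraries was left out (replicates 1 and 3 of siNS Dex, 1 of siNS Eth, 2 and 3 of siPRMT5 Eth, 2 and 3 of siPRMT5 Dex), with values of -0.37 to -0.44 and adjusted p from 0.0513 to 0.10.

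IRS2, an adaptor of the insulin and IGF1 receptors, rose with Dex in every kind of cell. In siNS cells it went from 55.0, 52.1 and 54.9 CPM to 125.3, 112.0 and 144.4 CPM, a log2 fold change of 1.24 (SE 0.10, 2.36-fold, adjusted p = 2.20e-09). In siHP1γ cells it went from 53.4, 54.1 and 66.4 CPM to 106.6, 97.6 and 109.6 CPM (0.85, SE 0.10, 1.80-fold, adjusted p = 2.41e-06). In siPRMT5 cells it went from 44.3, 36.3 and 51.2 CPM to 138.2, 142.5 and 156.3 CPM (1.72, SE 0.11, 3.30-fold, adjusted p = 2.60e-12). No Eth library overlapped a Dex library. The response was larger in siPRMT5 than in siNS cells by 0.49 (SE 0.15), with an adjusted p of 0.0663. That difference passed in DESeq2 (adjusted p = 0.0434), without the filter on low counts (0.0160), and when replicate 1 of siHP1γ Dex (0.50, adjusted p = 0.0410), 3 of siNS Dex (0.60, 0.0335) or 3 of siPRMT5 Eth (0.62, 0.0206) was left out.

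The other adaptor and the insulin receptor had smaller responses. IRS1 was at 73.0, 79.7 and 75.5 CPM in siNS Eth and at 106.6, 108.4 and 101.7 CPM in siNS Dex, with a log2 fold change of 0.47 (SE 0.077, adjusted p = 9.96e-05) and 1.39-fold under the limit. INSR was at 29.4, 27.8 and 29.3 CPM in siNS Eth and at 39.5, 37.0 and 41.2 CPM in siNS Dex (0.45, SE 0.086, 1.36-fold, adjusted p = 8.03e-04). In both genes the 3 Dex libraries lay above the 3 Eth libraries, and the fold limit alone kept them from passing. IRS1 was at 67.7, 72.5 and 72.1 CPM in siHP1γ Eth, and its response was 0.35 in siHP1γ cells (1.27-fold, adjusted p = 0.00535) and 0.30 in siPRMT5 cells (1.23-fold, adjusted p = 0.00605), again without overlap. In siHP1γ cells INSR was at 20.3, 19.6 and 21.4 CPM with Eth and at 21.3, 21.3 and 23.0 CPM with Dex, and the groups overlapped (0.096, SE 0.093, 95% interval -0.096 to 0.29, adjusted p = 0.662). In siPRMT5 cells it was at 25.0, 25.8 and 28.7 CPM with Eth and at 35.7, 39.8 and 42.2 CPM with Dex (0.56, SE 0.087, 1.48-fold, adjusted p = 2.75e-05), and it passed the fold limit when replicate 1 of siPRMT5 Dex (0.64) or 3 of siPRMT5 Eth (0.63) was left out.

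IGF1R, the receptor that carries the IGF signal, was at 51.7, 55.2 and 46.7 CPM in siNS Eth and at 67.0, 62.0 and 65.8 CPM in siNS Dex (0.34, SE 0.092, adjusted p = 0.0158), which did not pass. IGF2R was at 208.2, 245.0 and 217.1 CPM in siNS Eth and at 232.8, 243.7 and 236.6 CPM in siNS Dex, and these overlapped (0.089, SE 0.087, adjusted p = 0.606). In depleted cells, IGF2R had a log2 fold change of -0.30 with siHP1γ, at 252.4, 287.6 and 271.7 CPM with Dex, and of -0.26 with siPRMT5, at 208.6, 254.7 and 272.6 CPM with Dex (adjusted p = 0.0377 for each), and IGF1R had -0.13 and -0.0028. IGFBP6, which prefers IGF2, and IGFBP7, a relative with low affinity for IGFs, passed in no kind of cell either, with log2 fold changes of -0.18 to 0.16 and overlapping groups throughout.

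**Figure D1:**
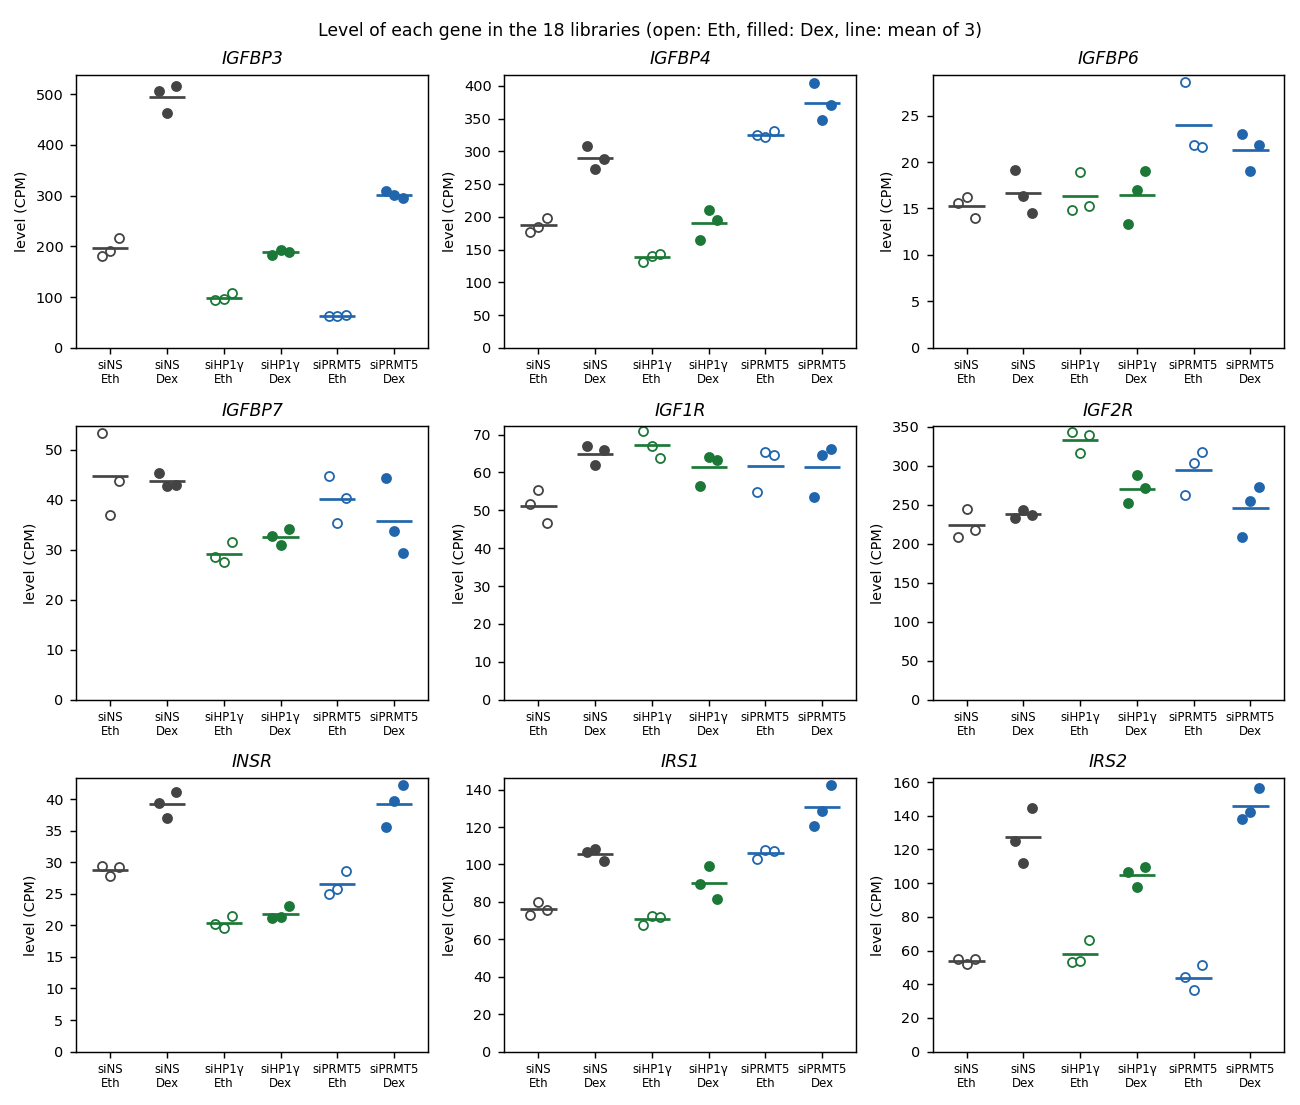
Level of each of the 9 genes in the 18 libraries, in TMM-scaled CPM on an axis from 0, with open points for Eth, filled points for Dex and a line at the mean of 3 replicates. IGFBP3 in siPRMT5 cells starts at 62.7 to 64.0 CPM with Eth and reaches 294.8 to 309.7 CPM with Dex, while IGFBP4 in siPRMT5 cells is at 321.1 CPM or more with either treatment.

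**Figure D2:**
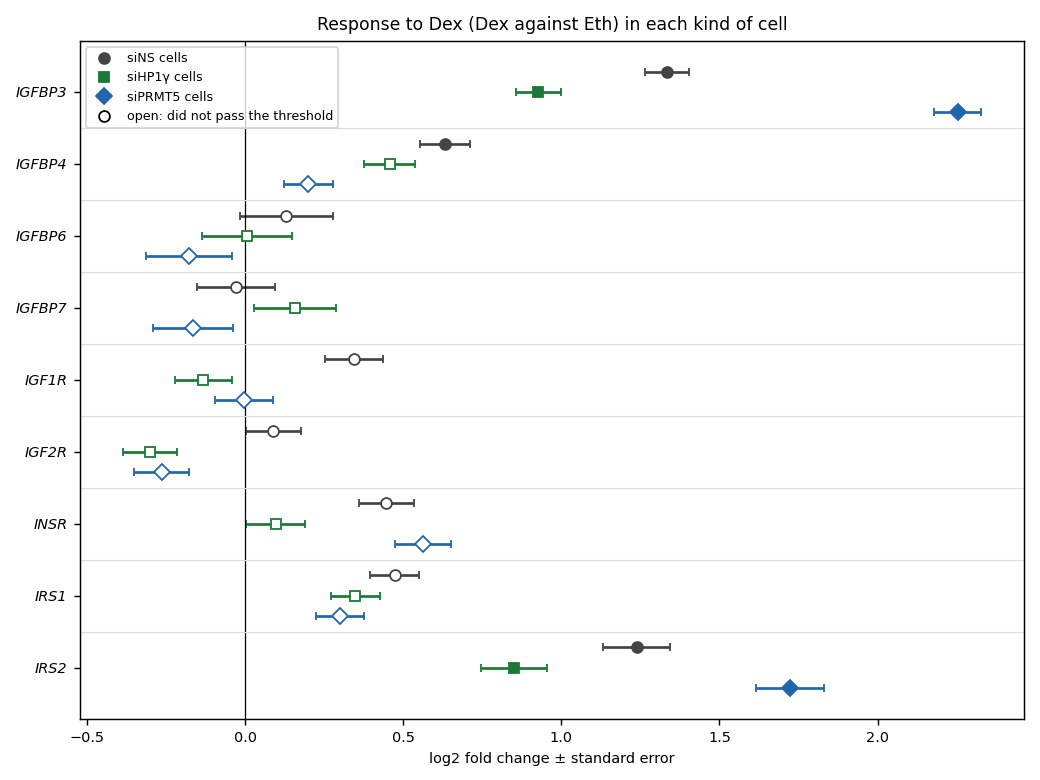
Response to Dex as log2 fold change of Dex against Eth (horizontal axis, bars are standard errors) for each gene in siNS (circles), siHP1γ (squares) and siPRMT5 cells (diamonds), with open symbols where the threshold was not passed. IGFBP3 and IRS2 pass in all 3 kinds of cell, and IGFBP4 passes in siNS cells.

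The 250 bases before the RefSeq start of the 3 genes that rose in siNS cells are shown, since these 3 passed together in that comparison. RNA levels do not tell transcription from RNA stability. The sequences are from GRCh38.p14, in which 8 of the 9 genes were matched by symbol and IGFBP7 was not. They run 5′ to 3′ on the strand of the gene, at chr7:45921273-45921522 (minus strand) for IGFBP3, chr17:40443200-40443449 (plus) for IGFBP4 and chr13:109786584-109786833 (minus) for IRS2. Capitals mark GC boxes (GGGCGG or its reverse complement CCGCCC) and a TATA box (TATAAA). Only these exact letters were searched, so the tatata near the end of the IGFBP3 sequence is not marked.
IGFBP3: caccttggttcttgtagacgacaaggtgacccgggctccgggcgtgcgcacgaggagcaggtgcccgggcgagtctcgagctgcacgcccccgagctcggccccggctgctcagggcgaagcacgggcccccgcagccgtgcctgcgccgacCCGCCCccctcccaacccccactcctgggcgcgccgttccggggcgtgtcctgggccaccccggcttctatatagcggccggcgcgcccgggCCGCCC
IGFBP4: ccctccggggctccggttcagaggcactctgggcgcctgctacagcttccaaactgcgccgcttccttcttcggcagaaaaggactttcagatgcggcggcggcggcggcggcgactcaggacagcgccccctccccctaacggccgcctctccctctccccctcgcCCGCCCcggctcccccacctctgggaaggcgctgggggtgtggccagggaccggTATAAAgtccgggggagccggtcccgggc
IRS2: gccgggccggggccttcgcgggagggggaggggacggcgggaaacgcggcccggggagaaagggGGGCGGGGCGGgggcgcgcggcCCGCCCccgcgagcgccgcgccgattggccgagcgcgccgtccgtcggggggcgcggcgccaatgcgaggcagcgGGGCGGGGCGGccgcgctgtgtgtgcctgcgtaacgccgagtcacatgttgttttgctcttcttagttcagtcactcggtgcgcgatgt
The GC box was found 2 times for IGFBP3, 1 time for IGFBP4 and 5 times for IRS2, where matches may overlap each other, and 42.6% of 35116 promoter windows hold it. The TATAAA of IGFBP4 lies at -29, and 10.7% of windows hold that motif. The GR element (GNACA and TGTNC with 3 bases of any kind between them, in 0.327% of windows), its half-site AGAACA (12.4%), which can overlap the element, and the AP-1 site TGANTCA (6.57%), all searched on both strands, were in none of the 8 windows. These letters are thus not in the windows, which says nothing of GR at other sites.

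With Dex, most of the 9 genes were lower in HP1γ-depleted cells. Between siHP1γ Dex and siNS Dex, 6 of the 9 genes passed (adjusted p under 0.05) and all 6 were lower: IGFBP3, IGFBP4, IGFBP7, INSR, IRS1 and IRS2. Of all genes tested, 24.0% passed and 12.3% passed as lower, and the median log2 fold change of the 9 was -0.28, beside 0.0049 for all genes. The comparisons of both depletions with Dex use the same siNS Dex libraries as the response to Dex, so the values of a siNS Dex library enter all of them. Without replicate 1 of siNS Dex, 3 of the 9 passed, and without replicate 1 of siHP1γ Dex 4 did (IGFBP3 -1.37, IGFBP4 -0.51, IGFBP7 -0.43 and INSR -0.82). IGFBP6 did not pass with Dex (-0.025, adjusted p = 0.919). Of the 6 markers of the line, VIM (-0.28), AXL (-0.38) and MSN (-0.31) were lower as well and TGFBI was higher (0.38), and EPCAM was higher (0.47, adjusted p = 0.00482).

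IGFBP3 was lower in siHP1γ than in siNS cells by -1.39 on the log2 scale with Dex (SE 0.070, adjusted p = 2.60e-13) and by -0.99 with Eth (SE 0.072, adjusted p = 1.66e-10). INSR was lower by -0.85 with Dex (SE 0.087, adjusted p = 7.14e-08) and by -0.49 with Eth (SE 0.092, adjusted p = 1.72e-04), and in both treatments every siHP1γ library lay below every siNS library. IGFBP4 was lower by -0.61 with Dex (adjusted p = 2.43e-06) and -0.44 with Eth (adjusted p = 1.73e-04). IGFBP7, at 45.3, 42.7 and 43.1 CPM in siNS Dex, was at 32.8, 30.9 and 34.1 CPM in siHP1γ Dex (-0.42, SE 0.13, adjusted p = 0.0151). This was lost without replicate 1 of siNS Dex (-0.39, adjusted p = 0.0548) or 2 of siHP1γ Dex (-0.38, 0.0582), and with library size alone as the scaling (-0.34, 0.0516). With Eth, at 53.4, 37.0 and 43.7 against 28.5, 27.6 and 31.5 CPM, it was lower by -0.61 (adjusted p = 6.34e-04).

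The adaptors differed less. IRS1, at 89.6, 99.2 and 81.3 CPM in siHP1γ Dex, was lower than in siNS Dex by -0.23 (SE 0.076, adjusted p = 0.0293), and IRS2 was lower by -0.28 (SE 0.10, adjusted p = 0.0411). The groups of each gene did not overlap. IRS1 did not pass when replicate 1 (-0.22, 0.0802) or 2 (-0.22, 0.0821) of siNS Dex or replicate 1 (-0.22, 0.0603) or 3 (-0.16, 0.148) of siHP1γ Dex was left out, where the second value is the adjusted p. IRS2 did not pass without replicate 1 (-0.29, 0.0759) or 3 (-0.18, 0.262) of siNS Dex or 1 (-0.30, 0.0541) or 2 (-0.24, 0.151) of siHP1γ Dex. With library size alone, neither passed (IRS1 -0.15, adjusted p = 0.148, and IRS2 -0.20, adjusted p = 0.147), and IRS1 did not pass without the filter on low counts (-0.24, 0.0550) or in a fit of the 6 libraries compared (-0.23, 0.0740).

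In Eth, IGF1R and IGF2R were higher after HP1γ depletion, while the binding proteins that passed were lower. Of the 9 genes, 6 passed, 4 lower (IGFBP3, IGFBP4, IGFBP7 and INSR) and 2 higher (IGF1R and IGF2R), where 31.8% of all genes passed, 15.2% as lower and 16.5% as higher. IGF2R was at 343.7, 316.6 and 339.4 CPM in siHP1γ Eth, above the 3 siNS Eth libraries (0.58, SE 0.087, adjusted p = 1.50e-05). IGF1R was at 70.9, 67.1 and 63.7 CPM there, also above them (0.39, SE 0.092, adjusted p = 0.00186). With Dex, neither passed (IGF1R -0.085, adjusted p = 0.536, and IGF2R 0.19, adjusted p = 0.122, or 0.27 and 0.0167 with library size alone). Of the rest, IGFBP6 (0.10), IRS1 (-0.10) and IRS2 (0.10) did not pass with Eth. The markers COL1A1 (1.20, adjusted p = 3.02e-05), PECAM1 (1.03, adjusted p = 0.00372), TGFBI (0.66) and ERBB2 (0.31) were higher in siHP1γ Eth, and AXL (-0.39), VIM (-0.29) and CD44 (-0.20) were lower.

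Depletion of PRMT5 moved the binding proteins in different directions. With Dex, 4 of the 9 genes passed, IGFBP3 lower and IGFBP4, IGFBP6 and IRS1 higher, where 42.4% of all genes passed, 21.9% as lower and 20.6% as higher. With Eth, 7 passed, IGFBP3 and IRS2 lower and IGFBP4, IGFBP6, IGF1R, IGF2R and IRS1 higher, where 42.1% of all genes passed, 21.6% as lower and 20.6% as higher. The share of the 9 that passed with Dex was near that of all genes. Markers moved in the same comparisons: AXL was lower by -2.13 with Dex (adjusted p = 2.05e-18) and with Eth (adjusted p = 1.40e-18), COL1A1 was higher by 1.20 with Dex and 2.10 with Eth, and PECAM1 by 0.71 and 1.31. With Eth, TGFBI (-0.42) and CD44 (-0.18) were lower too.

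IGFBP3 was lower in siPRMT5 than in siNS cells by -0.71 with Dex (SE 0.069, adjusted p = 6.14e-09) and by -1.63 with Eth (SE 0.075, adjusted p = 7.44e-15). IGFBP4 was higher by 0.37 with Dex (SE 0.078, adjusted p = 4.25e-04) and by 0.80 with Eth (SE 0.080, adjusted p = 9.86e-09), with no overlap in either. IRS1, at 102.8, 108.0 and 107.1 CPM with Eth and 120.4, 128.8 and 142.4 CPM with Dex in siPRMT5 cells, was higher by 0.48 (SE 0.078, adjusted p = 1.87e-05) and 0.31 (SE 0.075, adjusted p = 0.00186). IRS1 in siPRMT5 Eth thus lay in the range of siNS Dex, 101.7 to 108.4 CPM.

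IGFBP6 was at 28.7, 21.8 and 21.6 CPM in siPRMT5 Eth against 15.6, 16.2 and 14.0 CPM in siNS Eth (0.66, SE 0.14, adjusted p = 5.46e-04). With Dex, at 23.0, 19.1 and 21.8 against 19.2, 16.3 and 14.5 CPM, the groups overlapped (0.35, SE 0.14, adjusted p = 0.0474). That call was lost in DESeq2 (adjusted p = 0.0567) and when any of 7 libraries was left out (replicates 1 and 3 of siPRMT5 Dex, 2 and 3 of siNS Dex, 3 of siNS Eth, 2 of siHP1γ Dex and 3 of siHP1γ Eth), with values of 0.26 to 0.35 and adjusted p from 0.0501 to 0.205. IGFBP7, at 44.4, 33.7 and 29.4 CPM in siPRMT5 Dex, did not pass (-0.28, adjusted p = 0.0694), but it did without replicate 1 of siPRMT5 Dex (-0.46, adjusted p = 0.00490), replicate 1 of siNS Eth (-0.28, adjusted p = 0.0490) or the filter on low counts (-0.29, 0.0248), and in a fit of the 6 libraries compared (-0.29, 0.0315). With Eth it did not pass (-0.15, adjusted p = 0.365).

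Among the receptors, IGF2R was at 262.4, 302.9 and 318.2 CPM in siPRMT5 Eth (0.40, SE 0.087, adjusted p = 6.01e-04) and IGF1R at 54.7, 65.5 and 64.5 CPM (0.27, SE 0.093, adjusted p = 0.0234). IGF1R overlapped siNS Eth and was lost without replicate 1 (0.26, 0.0520) or 3 (0.20, 0.138) of siNS Eth or 2 (0.22, 0.105) or 3 (0.23, 0.0928) of siPRMT5 Eth. INSR did not pass with either treatment (-0.0032 with Dex, 95% interval -0.17 to 0.17, and -0.12 with Eth, interval -0.30 to 0.067), nor did IGF1R (-0.081) and IGF2R (0.045) with Dex. IRS2 was lower with Eth (-0.29, SE 0.11, adjusted p = 0.0370), with no overlap, and did not pass with Dex (0.19, adjusted p = 0.122), although it did without replicate 3 of siNS Dex (0.30, adjusted p = 0.0311). The Eth call was lost without replicate 1 (-0.29, 0.0746) or 3 (-0.28, 0.0913) of siNS Eth, replicate 1 (-0.30, 0.0717) or 2 (-0.18, 0.242) of siPRMT5 Eth, or with library size alone (-0.27, 0.0541).

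**Figure D3:**
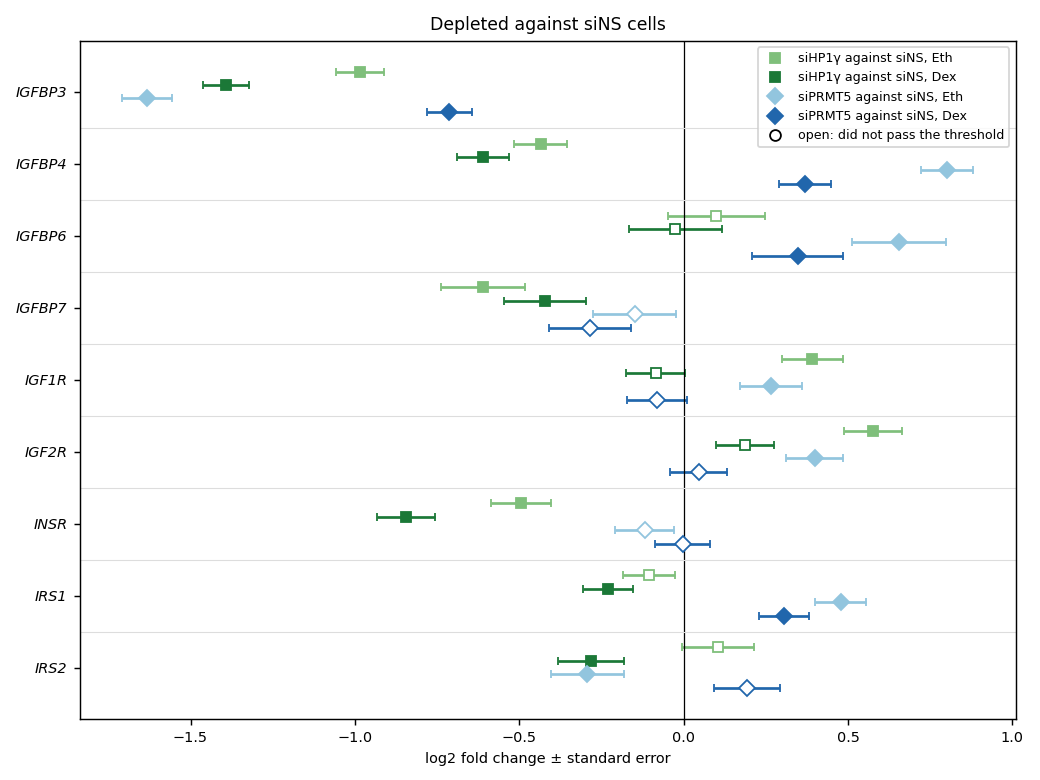
Depleted against siNS cells as log2 fold change (horizontal axis, bars are standard errors), with squares for siHP1γ and diamonds for siPRMT5, light for Eth and dark for Dex, and open symbols where the threshold was not passed. IGFBP3 is lower in all 4 comparisons, from -1.63 to -0.71, and IGFBP4 is lower with siHP1γ and higher with siPRMT5.

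The depletions were also compared directly. With Dex, 6 of the 9 genes passed and all 6 were higher in siPRMT5 than in siHP1γ cells (IGFBP3, IGFBP4, IGFBP6, INSR, IRS1 and IRS2), where 49.9% of all genes passed and 24.4% as higher. Without replicate 1 of siHP1γ Dex, 5 of the 9 passed. Of the markers, AXL (-1.75 with Dex and -1.74 with Eth) and TGFBI (-0.35 and -1.08) were lower in siPRMT5 than in siHP1γ cells, and COL1A1 (0.87 and 0.90) and VIM (0.38 and 0.44) were higher. With Eth, 7 passed, 5 higher (IGFBP4, IGFBP6, IGFBP7, INSR and IRS1) and 2 lower (IGFBP3 and IRS2), where 48.4% of all genes passed, 23.4% as higher and 25.0% as lower. IGF1R did not pass with either treatment (0.0041 with Dex and -0.13 with Eth), nor did IGF2R (-0.14 and -0.18), and IGFBP7 did not with Dex (0.14). IGFBP4 had the largest differences, 0.98 with Dex (SE 0.079, adjusted p = 1.56e-10) and 1.24 with Eth (SE 0.081, adjusted p = 3.40e-12). INSR was higher by 0.84 with Dex (SE 0.087, adjusted p = 1.35e-08). IGFBP3 went from lower with Eth (-0.65, adjusted p = 1.10e-07) to higher with Dex (0.68, adjusted p = 1.16e-08). IGFBP6 with Dex (0.37, adjusted p = 0.0284) was lost with library size alone (0.30, 0.0792) and without replicate 1 (0.32, 0.0995) or 3 (0.36, 0.0658) of siPRMT5 Dex or 1 of siHP1γ Dex (0.24, 0.171). IRS2 with Eth (-0.40, adjusted p = 0.00441) was lost without replicate 2 of siPRMT5 Eth (-0.26, 0.0620) or 3 of siHP1γ Eth (-0.29, 0.0523), and IGF2R was lower with library size alone (-0.21 with Dex, 0.0369, and -0.22 with Eth, 0.0323).

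Beyond the 9 genes, lists of the pathway were followed in the same fit. The list of genes that cut binding proteins or block their cutting also holds TMEM219, which does neither. Of its 11 genes, 9 were tested. With Dex in siNS cells 1 of them (11.1%, beside 2.71% of all genes) fell, STC1 (-0.99, SE 0.081, adjusted p = 1.02e-09), whose product inhibits PAPP-A. In siHP1γ Dex against siNS Dex, 5 were higher, TMEM219 among them (0.34, adjusted p = 0.00762), and 2 lower (77.8%, beside 24.0% of all genes). Also among the 5 were STC2 (1.56) and PAPPA (1.27), which encodes PAPP-A, at low means of 2.36 and 1.44 CPM. The list median of 0.62 is the value of HTRA3, which did not pass (adjusted p = 0.142) and has a mean of 1.67 CPM. ADAM12, a metalloprotease that cleaves IGFBP3, was higher there (1.36, adjusted p = 1.14e-05), as was STC1 (0.64, adjusted p = 2.06e-06). ADAM9, a related protease, was lower (-0.55, adjusted p = 1.09e-05). ADAM12 was near the limit of 5 CPM for naming, with a mean of 5.33 CPM and a median of 3.71 CPM over the 18 libraries. It thus met the limit through the libraries in which it was high. With Eth, ADAM12 was also higher in siHP1γ than in siNS cells (1.22, adjusted p = 7.94e-06). In siPRMT5 Dex against siNS Dex, 1 was higher, STC1 (0.33, adjusted p = 0.00219), and 3 were lower, among them the secreted protease HTRA1 (-0.75, adjusted p = 2.79e-06). This share of 44.4% was near the 42.4% of all genes. The list median of -0.54 is the value of ADAM12, which did not pass (adjusted p = 0.0903). Of the genes below it, HTRA3, PAPPA2 and STC2 have means of 1.67, 1.03 and 2.36 CPM, and HTRA1 has 15.7 CPM.

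Of the adaptors and feedback regulators of the receptors, 27 of 29 were tested. With Dex in siNS cells 2 (7.41%, beside 2.71% of all genes) rose, PTPN1 (0.75, SE 0.061, adjusted p = 8.05e-10), the phosphatase PTP1B that removes phosphate from INSR, and SOCS3 (0.62, SE 0.095, adjusted p = 3.89e-05), a feedback inhibitor of receptor signalling. In siHP1γ Dex against siNS Dex, 3 were higher and 10 lower, a share of 48.1% beside 24.0% of all genes. SOCS3 was lower there (-0.78, adjusted p = 7.64e-07), as were the pseudokinase TRIB3 (-0.88, adjusted p = 3.28e-07) and the phosphatase PTPN11 (-0.66, adjusted p = 3.99e-06). PTPN11 overlaps RPL6 on the opposite strand, and reads that both share can be left uncounted. CRK, SOCS2, PHLPP1, PHLPP2, DEPTOR, PIK3R3, IGF2BP2 and IGF2BP3, named below, also overlap genes on the opposite strand. So do ADAM9, ADAM12, HTRA1 and PTPN1, named above. PIK3R3 overlaps P3R3URF-PIK3R3 on its own strand too, with the same limit. In siPRMT5 Dex against siNS Dex, 5 were higher and 15 lower, a share of 74.1% beside 42.4%. Among those at a mean of 5 CPM or more, the lowest were the adaptor CRK (-1.96, adjusted p = 1.88e-08), SOCS2 (-1.38, adjusted p = 1.18e-10) and the receptor phosphatase PTPRF (-1.09, adjusted p = 1.94e-10).

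Of the PI3K, AKT and mTOR genes, 31 of 33 were tested. With Dex in siNS cells 1 (3.23%, near the 2.71% of all genes) rose, PHLPP1 (0.73, SE 0.10, adjusted p = 9.52e-06), a phosphatase that acts on AKT. In siHP1γ Dex against siNS Dex, 7 were higher and 4 lower, a share of 35.5% beside 24.0% of all genes. PHLPP1 was the lowest (-1.57, SE 0.11, adjusted p = 7.79e-11), its relative PHLPP2 was also lower (-0.58, adjusted p = 1.36e-05), and FOXO4, a transcription factor that AKT keeps out of the nucleus, was higher (0.51, adjusted p = 0.0125). In siPRMT5 Dex against siNS Dex, 12 were higher and 10 lower, a share of 71.0% beside 42.4% of all genes. Among those at a mean of 5 CPM or more, the highest were DEPTOR (2.03, SE 0.17, adjusted p = 3.08e-10), an inhibitor of mTOR, and the regulatory subunits of PI3K, PIK3R3 (1.96, SE 0.12, adjusted p = 6.59e-13) and PIK3R1 (0.68, SE 0.096, adjusted p = 2.84e-06). DEPTOR was at 2.65, 3.16 and 3.99 CPM in siNS Dex and at 13.3, 12.9 and 14.1 CPM in siPRMT5 Dex. Its mean was 5.71 CPM over the 18 libraries but under 5 CPM in each siNS and siHP1γ condition. It thus met the limit for naming through siPRMT5 cells. Of the RNA-binding proteins that bind IGF2 mRNA, IGF2BP3 fell with Dex (-0.74, adjusted p = 3.65e-05), was higher in siHP1γ Dex (0.97, adjusted p = 3.81e-07) and higher in siPRMT5 Dex (1.23, adjusted p = 1.62e-09), and IGF2BP2 was lower in siPRMT5 Dex (-0.23, adjusted p = 0.0158).

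**Figure D4:**
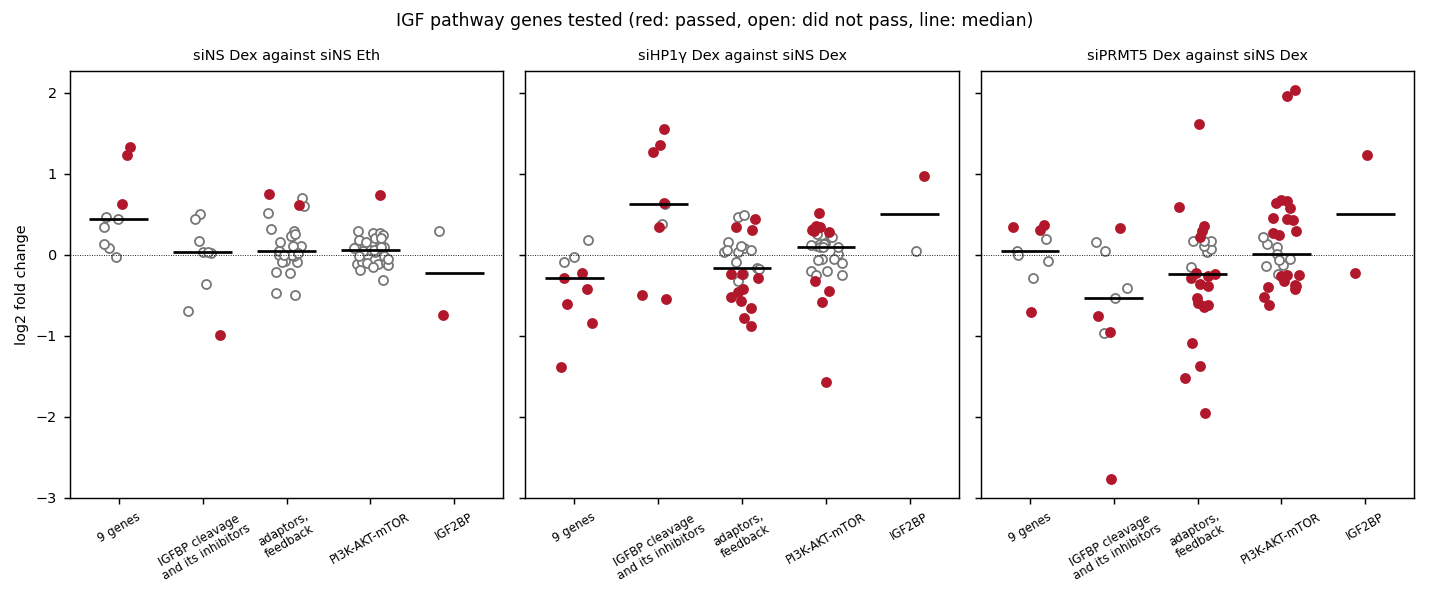
Log2 fold change (vertical axis) of the 9 genes and of the genes tested in 4 lists, for the response to Dex in siNS cells and for each depletion with Dex, with red points for genes that passed, open points for others and a line at the median. In siHP1γ Dex the median is -0.28 for the 9 genes. Of the 9 genes tested in the list of binding protein cleavage, which includes TMEM219, 5 are higher and 2 lower.

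Over the 18 libraries, the genes closest to each member were named from 11410 genes at 5 CPM or more, by Pearson's r of log2 CPM. As the libraries share conditions and replicates, r is a description here and gives no test. IGFBP3 was closest to CCBE1 (0.97), IGFBP4 to AMOTL2 (0.97), IGFBP6 to COX14 (0.95), IGFBP7 to NPC2 (0.94), IGF2R to MAP4K4 (0.95) and IRS1 to TNFRSF1A (0.95). INSR was closest to PHLPP1 (0.97), IRS2 to S1PR3 (0.98), and IGF1R to CHD8 (0.89). Among the 9 genes themselves, IGFBP4 and IRS1 had r = 0.92, and IGFBP3 and IRS2 had r = 0.84.

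The genes lie, on hg38 in GENCODE 44, as follows. IGFBP3 is at chromosome 7, 45912245 to 45921874 (minus strand), near IGFBP1 at 45888360 to 45893660 (plus). IGFBP4 is at chromosome 17, 40443450 to 40457725 (plus), IGFBP6 at chromosome 12, 53097436 to 53102345 (plus), INSR at chromosome 19, 7112255 to 7294414 (minus), and IRS1 at chromosome 2, 226731312 to 226799820 (minus), and none of these overlaps another gene. IGFBP7, at chromosome 4, 57030773 to 57110385 (minus), overlaps POLR2B, UBE2CP3 and IGFBP7-AS1 on the opposite strand. IGF1R, at chromosome 15, 98648539 to 98964530 (plus), overlaps 5 genes, and IGF2R, at chromosome 6, 159969082 to 160113507 (plus), overlaps CHP1P2 on its strand and AIRN on the opposite. IRS2, at chromosome 13, 109752695 to 109786583 (minus), overlaps 1 gene on the opposite strand. Since the strand setting of the counting is not given in the sources used here, the counts of these 4 genes are less certain than those of the other 5.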

How the data were processed

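RNA-seq was read from 18 libraries of MDA-MB-231 cells (6 conditions, 3 replicates each). Conditions and replicates were taken from the sample labels. The labels only number the replicates within each condition, and the authors describe them as biological replicates. If they are not separate cultures, the p-values measure technical spread. The authors prepared Lexogen libraries, mapped reads on hg38 with Bowtie2 (2.4.2) and counted them with HTSeq (0.9.1). The authors deposited whole-number counts per gene symbol, without normalization. Because Bowtie2 aligns without splicing, reads that cross an exon junction may be missing from the counts. The strand setting and annotation are not given in the sources used here. A further deposited table holds DESeq2 (2.11.40.7) comparisons by the authors, with mean counts, log2 fold changes, Wald statistics and p-values, which was not used.

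Genes kept by filterByExpr (15298 of 60642) were scaled by TMM, and all 18 libraries entered 1 edgeR (4.0.16, R 4.3.3) quasi-likelihood fit (a mean for each condition, 12 residual degrees of freedom). P-values were adjusted by Benjamini-Hochberg over all genes tested. The response to Dex passed at an adjusted p under 0.01 and at least 1.5-fold, and other comparisons and the interactions at an adjusted p under 0.05. Standard errors were the log2 fold change over the root of F. The scripts were tested on simulated data. An exact permutation test of 3 against 3 libraries cannot go below 0.1 and is not printed. Intervals and p-values do not cover errors of the counting itself.

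The 9 genes are named throughout, with the siRNA targets and, by their levels, the related ligands, receptors and binding proteins. Of each pathway list, up to 3 genes with the largest change that passed, at a mean of at least 5 CPM, are named for the response to Dex in siNS cells and both depletions with Dex. This mean is over all 18 libraries, so a gene can meet it through the condition in which it is high. The genes and lists were chosen with earlier results of these data known. Promoter sequences are from RefSeq (GRCh38.p14). The alternatives were DESeq2 (1.42.0, with adjusted p-values given as NA kept so), its size factors, library size alone, no filter, the replicate number as a block, only the libraries compared, other fold limits, and each library left out in turn.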

Additional observations from a re-analysis of the deposited data

Results flagged for a closer look

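The response of IGFBP3 to Dex differed between siPRMT5 and siNS cells, by 0.92 on the log2 scale. The response of IGFBP4 differed the other way, by -0.43. The IGFBP4 difference did not pass when any of 7 libraries was left out. Both were picked out because the difference between the responses passed its own test.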

How the results depend on the processing

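Of 2376 repeats of the 99 log2 fold changes (9 genes, 11 comparisons) under 24 settings, 2303 stayed on their side of the threshold, 47 no longer passed and 26 newly passed. The sign changed in 45 repeats of 12 values, of which the largest in size was 0.14, and in 0 repeats where the value passed. For the response to Dex, a limit of 2-fold gave 194, 106 and 373 genes in siNS, siHP1γ and siPRMT5 cells, and 0 of the 9 genes in siHP1γ cells. An adjusted p under 0.05 with no fold limit gave 1402, 849 and 2449 genes, and 6, 5 and 5 of the 9. These follow from the limit itself. For the difference in response of siHP1γ cells, DESeq2 gave 327 genes and 2 of the 9, no filter gave 374 and 3, and leaving out a library gave 20 to 186 genes and 0 to 1 of the 9. For siPRMT5 cells, no filter gave 4 of the 9, and leaving out a library gave 319 to 897 genes and 1 to 3 of the 9. The cause was not tested. Leaving out a library gave 3 to 6 of the 9 for siHP1γ Dex against siNS Dex. Library size alone gave 2848 higher and 1269 lower genes there, against 1882 lower of 3669 with TMM, and 3198 and 1814 with Eth, against 2329 lower of 4860.

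The labels do not say whether libraries with the same replicate number were made together. Of 45 same-numbered pairs, 10 had deviations that correlated above 0.1 (median 0.013), and 11 of 18 libraries correlated best with their own number. The number to be met without pairing was not computed, so these values do not decide whether the replicates are paired. With the replicate block, the difference in response of siHP1γ cells gave 94 genes, IGFBP6 lost its call in siPRMT5 Dex (0.35, adjusted p = 0.0534), and IGFBP7 (-0.29, 0.0330) and IRS2 (0.20, 0.0338) passed there. IRS2 also passed for the difference in response of siPRMT5 cells (0.50, 0.0122), and IGF2R between the depletions with Eth (-0.18, 0.0492). The calls most often lost when 1 library was left out were IGFBP6 in siPRMT5 Dex and the difference in response of IGFBP4, by 7 libraries each.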
